A study of Homo sapiens with 8 samples.

Results

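The genes described here are 10 members of the BCL2 family, the proteins that control whether mitochondria release the factors that start apoptosis. They were taken by gene symbol from the annotated probe sets, and all 10 were found among the 22458 genes measured. They comprise the anti-apoptotic genes MCL1, BCL2 and BCL2L1, the effector genes BAX and BAK1, and the BH3-only genes BCL2L11, PMAIP1, BBC3, BID and BIK. The cells were NCH644, an established glioblastoma line with stem-like properties kept as neurospheres, and total RNA was hybridised to expression arrays after 24 h of treatment. The 4 groups were OTX015 at 5 µM together with panobinostat at 5 µM, panobinostat alone at 5 µM, OTX015 alone at 5 µM, and DMSO as vehicle. OTX015 inhibits the BET bromodomain proteins, readers of acetylated histones, and panobinostat inhibits histone deacetylases. Each group held 2 arrays described as biological duplicates. How the duplicates were separated is not stated, so p-values measure only the spread between these arrays, which may be technical. A single cell line, dose and time were studied.

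Proteins of the BCL2 family meet at the outer mitochondrial membrane. BAX and BAK1 form the pores that release cytochrome c, the anti-apoptotic members hold them and the BH3-only members in check, and BH3-only proteins relay stress by binding either kind. Glioblastoma cells are known to lean on MCL1 and on BCL-XL, the main product of BCL2L1. The arrays gave 1 RNA value per gene, so protein levels were not measured and splice forms with opposed actions, known for MCL1 and BCL2L1, could not be told apart. Levels of different genes cannot be ranked against each other, because each rests on its own probes.

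Values are given as log2 array signals, in which a difference of 1 is a doubling, and changes as log2 differences ± standard error (SE) from limma, with 2 arrays in each group. A gene was called at a Benjamini-Hochberg adjusted p under 0.05 over all 22458 genes. Array medians lay between 3.87 and 4.004, and duplicates correlated across genes at r of 0.9903 to 0.993. Olfactory receptor genes, silent in most tissues, gave a background level of 3.03, under which 95% of the mean signals per group of 354 such genes fell. The stem and progenitor markers SOX2, NES, OLIG2, PROM1, MSI1 and VIM averaged between 7.03 and 10.1 in DMSO cells, whereas CD44 (3.18) and FUT4 (3.03) lay near background. Of 8 microglia and macrophage markers, 5 with both drugs, 5 with panobinostat, 6 with OTX015 and 6 with DMSO averaged under the background level, with PTPRC, AIF1, ITGAM, CX3CR1 and P2RY12 under it in all groups. Their summed linear signal per array was 1353 to 1584 with both drugs, 728 to 868 with panobinostat, 121 to 122 with OTX015 and 73.1 to 96.5 with DMSO. CD68, which encodes a lysosomal protein, held most of it, at a mean of 10.4 with both drugs, 9.46 with panobinostat, 6.35 with OTX015 and 5.53 with DMSO. CSF1R rose by 1.90 ± 0.35 with both drugs and 2.34 ± 0.35 with panobinostat, but its DMSO arrays differed, at 2.86, under background, and 4.19. TMEM119 was at least 1.31-fold higher with both drugs and 1.21-fold with panobinostat, its DMSO mean being under background. Against DMSO, 3 of these 8 markers rose with both drugs, 3 with panobinostat and 1 with OTX015, and 0 fell. In that order 37.5%, 37.5% and 12.5% of them were called, near the 37.5%, 37.2% and 16.5% of all genes. Of the 8 stem markers 1 rose and 5 fell with both drugs, 1 rose and 4 fell with panobinostat, and 3 rose and 3 fell with OTX015, PROM1 and MSI1 falling in all 3. Their called shares were 75%, 62.5% and 75% in the same order. Of 6 endothelial markers 1 rose and 0 fell with both drugs, 1 rose and 1 fell with panobinostat and 0 were called with OTX015, and 5 were under background in every group. Of 6 pericyte and fibroblast markers 1 rose with both drugs and 1 with panobinostat, COL1A1 in each (1.39 and 1.61), and 0 of 5 lymphocyte markers were called. The called shares were 16.7%, 33.3% and 0% for endothelial and 16.7%, 16.7% and 0% for pericyte and fibroblast markers. The part of these markers in the results below was not tested. In bulk RNA, fewer cells of a type and less RNA per cell cannot be told apart.

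Promoter windows from RefSeq on GRCh38.p14 were matched by symbol for 8 of the 10 genes. MCL1 and BIK had no window, so their promoters were not searched. BCL2L1 had 2 windows and BID 5, one for each annotated start, and the others had 1. The 150 bases before the start site are shown for BCL2L11 and PMAIP1, which OTX015 raised, and for BAX, which panobinostat lowered. They are on the plus strand, at chr2:111120764-111120913, chr18:59899846-59899995 and chr19:48954725-48954874. Capitals mark the GC box, GGGCGG on either strand, in the first 2 sequences and the E-box, CACGTG, the motif bound by MYC and related factors, in the third.
BCL2L11: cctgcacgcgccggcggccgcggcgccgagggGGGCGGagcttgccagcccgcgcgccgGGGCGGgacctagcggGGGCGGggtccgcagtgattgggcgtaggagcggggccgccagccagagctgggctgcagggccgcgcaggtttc
PMAIP1: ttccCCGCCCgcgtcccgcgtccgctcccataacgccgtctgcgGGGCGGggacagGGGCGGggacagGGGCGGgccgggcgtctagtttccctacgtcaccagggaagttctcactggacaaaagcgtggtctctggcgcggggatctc
BAX: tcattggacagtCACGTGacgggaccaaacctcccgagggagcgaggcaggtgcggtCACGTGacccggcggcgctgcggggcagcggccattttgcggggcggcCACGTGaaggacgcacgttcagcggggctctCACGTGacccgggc

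The BAX window held 4 E-boxes. Of the 35116 windows of 300 bases in the RefSeq table (250 before the start and 50 after), 7.26% held at least 1. Shares of windows with several matches of a motif were not counted. BBC3 held 1 E-box, and so did 2 of the 5 BID windows. These 2 windows overlap, and the E-box is the same site in both. GC boxes numbered 4 in PMAIP1, 3 in BCL2L11, 2 in BAK1 and 2 in BAX, and occurred in 4 of the 5 BID windows and 1 of the 2 BCL2L1 windows, and 44.95% of all windows held at least 1. Because BID windows overlap, some of their GC boxes are the same sites. A CCAAT box (CCAAT, in 34.61% of windows) occurred in BCL2L11, BAK1, BBC3 and BAX. The motif TGACG, a part of the cyclic AMP response element (24.55%), occurred once each in PMAIP1, BCL2, BAX and 1 BCL2L1 window. In BAX it overlapped an E-box. BBC3 held an AP-1 motif, TGANTCA (7.71%), and a BCL2L1 window held TATAAA (11.53%) and TTTNGCGC, an E2F motif (1.79%). The full response element TGACGTCA (1.85%), which contains the TGACG motif, and the amino acid response element TGATGNAA (3.62%) matched in none of the members' windows. Both strands were searched, and a match describes letters only. Nothing here describes the promoters of MCL1 and BIK.

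With both drugs, 9 of the 10 genes were called against DMSO (37.5% of all genes were), 6 higher (19.2%) and 3 lower (18.4%). MCL1, BCL2L11, BIK, BBC3, PMAIP1 and BAK1 rose, and BID, BCL2 and BAX fell. Their arrays did not overlap those of DMSO in 9 of 10 genes, an arrangement found for 64.4% of all genes. With panobinostat alone, 9 of 10 were called (37.2%), 5 higher (19.4%) and 4 lower (17.9%), and all 10 were apart from DMSO (66.6%). OTX015 alone gave 3 calls (16.5%), 3 higher (7.97%) and 0 lower (8.49%), with 8 of 10 apart (53.7%). These 3 comparisons share the DMSO arrays. The median absolute change of the 10 genes was 1.24 with both drugs, 0.86 with panobinostat and 0.44 with OTX015, beside 0.33, 0.34 and 0.22 over all genes. The median standard deviation within groups was 0.180 for the 10 genes and 0.161 for all genes.

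**Figure D1:**
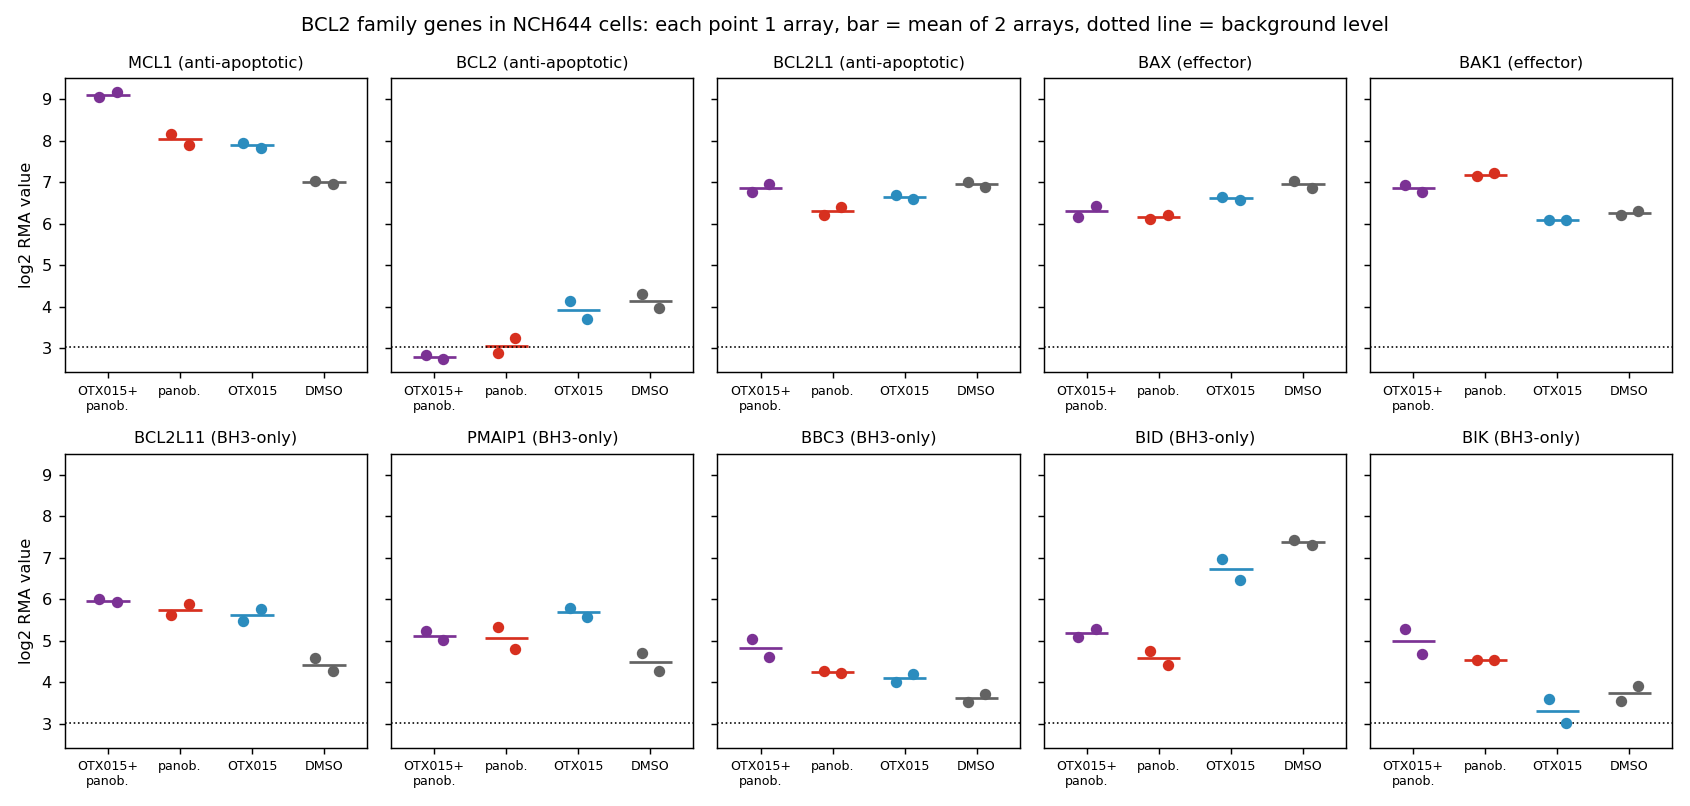
Log2 array signal of the 10 BCL2 family genes in each of the 8 arrays, by treatment group; each point is 1 array, the bar is the mean of 2 arrays and the dotted line is the background level of 3.03. MCL1 is highest with both drugs (9.05 and 9.18), BID is lowest with panobinostat (4.75 and 4.43), and BCL2 lies below the dotted line with both drugs.

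MCL1 encodes a short-lived anti-apoptotic protein that binds BAK1, BIM and NOXA. Its signal was 9.05 and 9.18 with both drugs, 8.17 and 7.91 with panobinostat, 7.94 and 7.83 with OTX015, and 7.04 and 6.96 with DMSO. All treated arrays lay above both DMSO arrays, and the arrays with both drugs lay above all others. MCL1 rose 4.33-fold with both drugs (2.12 ± 0.14, adjusted p = 8.08e-06), 2.06-fold with panobinostat (1.04 ± 0.14, adjusted p = 0.000458) and 1.85-fold with OTX015 (0.89 ± 0.14, adjusted p = 0.00385). Its rise with both drugs was number 364 of 22458 from the top.

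BCL2, the founding anti-apoptotic member, moved the other way. Its signal was 2.83 and 2.74 with both drugs, 2.87 and 3.24 with panobinostat, 4.14 and 3.71 with OTX015, and 4.31 and 3.98 with DMSO. The arrays with panobinostat, alone or combined, were low and the other 4 were high. BCL2 was lower with both drugs (-1.36 ± 0.20, adjusted p = 0.000683) and with panobinostat (-1.09 ± 0.20, adjusted p = 0.00242). Its mean of 2.79 with both drugs lay under the background level, so that fall is bounded as at least 2.17-fold, and the panobinostat mean of 3.06 lay just above that level. OTX015 arrays overlapped DMSO, and the difference of -0.22 had a 95% interval of -0.67 to 0.23.

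BCL2L1 encodes BCL-XL. Its signal was 6.77 and 6.97 with both drugs, 6.2 and 6.39 with panobinostat, 6.69 and 6.60 with OTX015, and 7.01 and 6.89 with DMSO. It was lower with panobinostat (-0.66 ± 0.14, adjusted p = 0.00537), whereas the arrays with both drugs overlapped DMSO (-0.08, 95% interval -0.40 to 0.23, adjusted p = 0.691). Both OTX015 arrays lay below DMSO, at a difference of -0.30 that was not called (adjusted p = 0.193). Of 6 anti-apoptotic genes listed, these 3 included, 1 rose and 1 fell with both drugs, 1 rose and 2 fell with panobinostat, and 1 rose and 0 fell with OTX015. In that order 33.3%, 50% and 16.7% were called, beside 37.5%, 37.2% and 16.5% of all genes. Of the others, BCL2L2 (BCL-W) gave -0.37 with both drugs and was not called (adjusted p = 0.0592), and BCL2A1 and BCL2L10 lay under background in all groups.

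The effectors moved in opposite directions. BAX had signals of 6.16 and 6.43 with both drugs, 6.11 and 6.2 with panobinostat, 6.65 and 6.58 with OTX015, and 7.02 and 6.87 with DMSO. All treated arrays were below DMSO, and the fall was called with both drugs (-0.65 ± 0.14, adjusted p = 0.00576) and with panobinostat (-0.79 ± 0.14, adjusted p = 0.00206), but not with OTX015 (-0.33, adjusted p = 0.162). BAK1 had 6.94 and 6.76 with both drugs, 7.14 and 7.21 with panobinostat, 6.09 and 6.09 with OTX015, and 6.21 and 6.31 with DMSO. The panobinostat arrays were the highest, and both groups with panobinostat were clear of the other 4 arrays. BAK1 rose 1.504-fold with both drugs (0.59 ± 0.13, adjusted p = 0.0061) and 1.89-fold with panobinostat (0.92 ± 0.13, adjusted p = 0.00056). With OTX015 its difference was -0.17 (95% interval -0.46 to 0.12). BOK, a further pore-forming relative, fell with both drugs (-0.85 ± 0.18, adjusted p = 0.0048) and with panobinostat (-1.51 ± 0.18, adjusted p = 0.000215).

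Among BH3-only genes, BCL2L11 encodes BIM, which binds all anti-apoptotic members and also activates BAX and BAK1. Its signal was 6.0 and 5.94 with both drugs, 5.61 and 5.89 with panobinostat, 5.48 and 5.76 with OTX015, and 4.58 and 4.28 with DMSO. All treated arrays were above DMSO. The rise was 2.91-fold with both drugs (1.54 ± 0.17, adjusted p = 0.000122), 2.50-fold with panobinostat (1.32 ± 0.17, adjusted p = 0.000325) and 2.29-fold with OTX015 (1.20 ± 0.17, adjusted p = 0.0023). Among rises with OTX015 it stood at number 202 of 22458.

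PMAIP1 encodes NOXA, which binds MCL1 and promotes its breakdown. Its signal was 5.23 and 5.01 with both drugs, 5.34 and 4.80 with panobinostat, 5.80 and 5.58 with OTX015, and 4.70 and 4.28 with DMSO. The OTX015 arrays were the highest, and the groups with panobinostat lay between them and DMSO. It rose 2.29-fold with OTX015 (1.20 ± 0.22, adjusted p = 0.00696), a call lost without OTX015 replicate 1 (adjusted p = 0.0567). The rise with both drugs was called at the margin (0.63 ± 0.22, adjusted p = 0.0486). The call was lost after centring each array on its median (0.57, adjusted p = 0.0741) and with array weights (0.63, adjusted p = 0.0669). It was also lost without replicate 1 (0.52) or replicate 2 (0.74) of that group or DMSO replicate 2 (0.42). With panobinostat it was not called (0.58 ± 0.22, adjusted p = 0.0653), but was without panobinostat replicate 2 (0.0252) or DMSO replicate 1 (0.043).

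BBC3 encodes PUMA, a p53-induced inhibitor of all anti-apoptotic members. Its signal was 5.05 and 4.61 with both drugs, 4.27 and 4.23 with panobinostat, 4.0 and 4.19 with OTX015, and 3.52 and 3.72 with DMSO. Group means stood in that order, and all treated arrays were above DMSO. The rise was 2.32-fold with both drugs (1.21 ± 0.17, adjusted p = 0.000587) and 1.55-fold with panobinostat (0.63 ± 0.17, adjusted p = 0.0195), and with OTX015 the difference of 0.48 was not called (adjusted p = 0.106). The panobinostat call was lost without panobinostat replicate 1 (adjusted p = 0.0868) or 2 (0.0691) or DMSO replicate 1 (0.1).

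BIK encodes a BH3-only protein found largely at the endoplasmic reticulum. Its signal was 5.29 and 4.69 with both drugs, 4.53 and 4.55 with panobinostat, 3.61 and 3.03 with OTX015, and 3.56 and 3.90 with DMSO. The groups with panobinostat were high, and OTX015 replicate 2 lay at background. BIK rose 2.39-fold with both drugs (1.26 ± 0.25, adjusted p = 0.00366) and 1.75-fold with panobinostat (0.81 ± 0.25, adjusted p = 0.0317). The panobinostat call was lost without panobinostat replicate 1 (adjusted p = 0.103) or 2 (0.11) or DMSO replicate 1 (0.155). OTX015 arrays overlapped DMSO (-0.41, 95% interval -0.98 to 0.15).

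BID, which is cut by caspase-8 and links death receptors to mitochondria, showed the widest range of the 10 genes, 2.78 between group means. Its signal was 5.08 and 5.29 with both drugs, 4.75 and 4.43 with panobinostat, 6.97 and 6.47 with OTX015, and 7.43 and 7.32 with DMSO. Panobinostat arrays were the lowest and DMSO arrays the highest. BID fell 4.55-fold with both drugs (-2.19 ± 0.19, adjusted p = 3.92e-05) and 6.89-fold with panobinostat (-2.78 ± 0.19, adjusted p = 1.36e-05). The panobinostat change stood at number 157 of 22458 from the bottom. With OTX015 the difference was -0.65 ± 0.19 (adjusted p = 0.0533), and it was called without OTX015 replicate 1 (-0.90, adjusted p = 0.0358).

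Of 8 BH3-only genes listed, 5 rose and 1 fell with both drugs, 4 rose and 2 fell with panobinostat, and 3 rose and 1 fell with OTX015. In that order 75%, 75% and 50% were called, beside 37.5%, 37.2% and 16.5% of all genes. Outside the 5 described, BMF was higher with both drugs (0.55 ± 0.17, adjusted p = 0.0307), panobinostat (0.75 ± 0.17, adjusted p = 0.00691) and OTX015 (0.72 ± 0.17, adjusted p = 0.0213). HRK fell with panobinostat (-1.27 ± 0.35, adjusted p = 0.0189) and BAD with OTX015 (-0.52 ± 0.14, adjusted p = 0.0332).

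**Figure D2:**
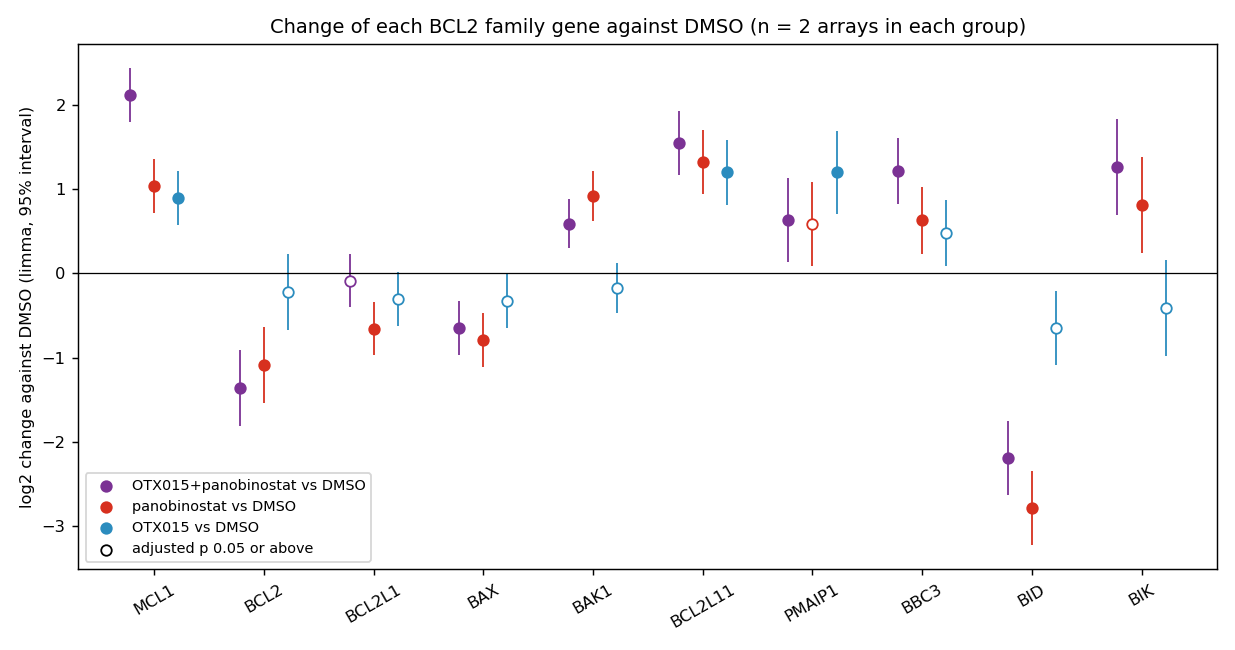
Log2 change of each BCL2 family gene against DMSO with its 95% interval from limma, for both drugs, panobinostat alone and OTX015 alone (2 arrays in each group; open circles have an adjusted p of 0.05 or above). MCL1 and BCL2L11 are above 0 in all 3 comparisons, and BID falls by 2.78 with panobinostat.

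Adding OTX015 to panobinostat brought calls for few of the 10 genes and few of all genes. The median absolute change of the 10 genes was 0.39, beside 0.21 over all genes. Against panobinostat alone, both drugs together gave 2 calls (10.4% of all genes), 2 higher (4.33%) and 0 lower (6.1%), with 8 of 10 genes apart (55.6%). MCL1 was higher with both drugs (1.07 ± 0.14, adjusted p = 0.00386). BCL2L1 was higher too (0.57 ± 0.14, adjusted p = 0.0358), a call lost without any 1 of the 4 arrays (adjusted p = 0.0794 without replicate 1 and 0.155 without replicate 2 of both drugs, 0.198 without replicate 1 and 0.0863 without replicate 2 of panobinostat). BBC3 (0.58, adjusted p = 0.069) and BID (0.60, adjusted p = 0.0892) were not called. BBC3 passed without replicate 2 of both drugs (adjusted p = 0.0477). BCL2L11 differed by 0.22 (95% interval -0.16 to 0.60) and PMAIP1 by 0.05 (95% interval -0.45 to 0.54).

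Adding panobinostat to OTX015 brought more calls, among the 10 genes and over all genes. Against OTX015 alone there were 6 calls (30%), 4 higher (15.3%) and 2 lower (14.7%), and all 10 genes were apart (61.8%). BIK was 3.19-fold higher with both drugs (1.67 ± 0.25, adjusted p = 0.00109), and MCL1 was 2.34-fold higher (1.23 ± 0.14, adjusted p = 0.000261). BAK1 (0.76 ± 0.13, adjusted p = 0.0021) and BBC3 (0.74 ± 0.17, adjusted p = 0.0118) were also higher. BBC3 lost the call without replicate 1 of both drugs (adjusted p = 0.0758) or OTX015 replicate 1 (0.0796). BID was 2.90-fold lower (-1.53 ± 0.19, adjusted p = 0.000448), and BCL2 was at least 1.86-fold lower (-1.14 ± 0.20, adjusted p = 0.00258). PMAIP1 was lower by a margin that was not called (-0.57 ± 0.22, adjusted p = 0.0855).

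Panobinostat was also set directly against OTX015, each at 5 µM. There were 5 calls (29.3%), 2 higher (16%) and 3 lower (13.3%), with 8 of 10 apart (63.8%). BIK (1.22 ± 0.25, adjusted p = 0.00603) and BAK1 (1.09 ± 0.13, adjusted p = 0.000353) were higher with panobinostat. BID (-2.13 ± 0.19, adjusted p = 9.51e-05), BCL2 (-0.87 ± 0.20, adjusted p = 0.0107) and BAX (-0.46 ± 0.14, adjusted p = 0.0372) were lower. BCL2 lost the call without replicate 1 of panobinostat (adjusted p = 0.08) or of OTX015 (0.0811), and BAX without any 1 of the 4 arrays (adjusted p = 0.164 and 0.101 without panobinostat replicates 1 and 2, 0.153 and 0.0996 without OTX015 replicates 1 and 2). The count was 3 without OTX015 replicate 1. MCL1 (0.15, 95% interval -0.17 to 0.47) and BCL2L11 (0.13, 95% interval -0.26 to 0.51) overlapped between the single drugs. PMAIP1 differed by -0.61 ± 0.22 (adjusted p = 0.0653), and was called without panobinostat replicate 1 (-0.88, adjusted p = 0.0296). Centring each array on its median shifted all differences of this comparison by -0.128, which gave 2 members higher and 5 lower and moved the share of higher genes among all called to 40.4%, against 54.7% as deposited. Of all genes, 30.6% were called after centring, against 29.3% as deposited. The same step shifted both drugs against OTX015 by -0.106, with 41% of called genes higher in place of 51.1%.

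Whether the drugs added up was asked with the interaction, the OTX015 change in the presence of panobinostat minus the OTX015 change in its absence. It was called for 4 of 10 genes (13.7% of all genes), 2 higher (6.32%) and 2 lower (7.42%). BID changed by 0.60 when OTX015 was added to panobinostat and by -0.65 when it was added to DMSO (interaction 1.25 ± 0.27, adjusted p = 0.0197). For BCL2L1 the corresponding changes were 0.57 and -0.30 (0.88 ± 0.20, adjusted p = 0.0218). BCL2L11 changed by 0.22 and 1.20 (-0.98 ± 0.24, adjusted p = 0.0293), and PMAIP1 by 0.05 and 1.20 (-1.15 ± 0.31, adjusted p = 0.0409). The PMAIP1 interaction was not called after quantile normalization (-1.098, adjusted p = 0.054). In all 4 genes the combination lay closer to DMSO than the sum of the single-drug changes, which was -3.44 for BID against an observed -2.19 and 2.52 for BCL2L11 against 1.54. The count was 0 without replicate 2 of both drugs or OTX015 replicate 2, and 2 without any 1 of the other 6 arrays. The share called over all genes was lower in these fits too, at 7.26% (without OTX015 replicate 2) to 11.3% (without DMSO replicate 1) over the 8 arrays left out in turn.

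The interaction of MCL1 was 0.19 (95% interval -0.26 to 0.64), with an observed change of 2.12 beside a sum of 1.93. BBC3 (0.11, 95% interval -0.45 to 0.66), BAK1 (-0.15, 95% interval -0.57 to 0.26) and BCL2 (-0.05, 95% interval -0.69 to 0.59) were not called, and BCL2 is limited here by the background level. BIK (0.87 ± 0.35, adjusted p = 0.151) and BAX (0.47 ± 0.20, adjusted p = 0.165) had intervals above 0 before adjustment and were not called.

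**Figure D3:**
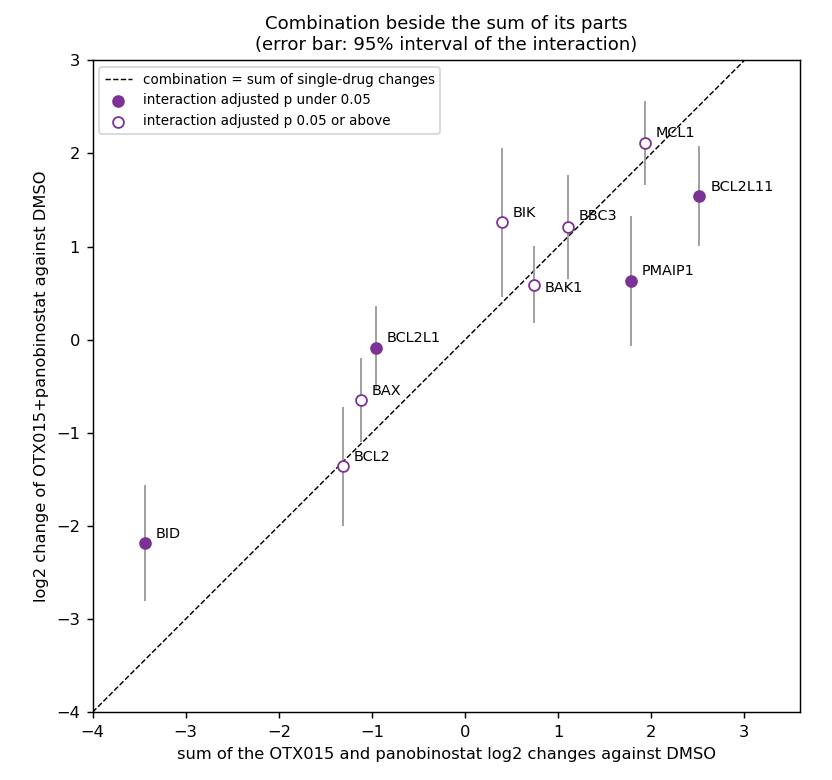
Change of the combination against DMSO (vertical axis, log2) beside the sum of the OTX015 and panobinostat changes (horizontal axis, log2) for the 10 BCL2 family genes; the dashed line marks equality, the error bar is the 95% interval of the interaction and filled points have an interaction adjusted p under 0.05. BID and BCL2L1 lie above the line, BCL2L11 and PMAIP1 below it, and MCL1 lies near it.

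The 4 members with the widest range of group means were compared with all other genes for likeness of pattern, as the root mean square distance (log2) over the 8 arrays after centring on the DMSO mean. Nearest to BID were SKA3 (0.21), ZIC1 (0.21) and RNPEPL1 (0.23), to MCL1 were ISYNA1 (0.14), MFSD11 (0.15) and ZC3H10 (0.16), to BCL2L11 were FAM118B (0.14), CHST1 (0.14) and ITPR2 (0.15), and to BIK were RAB36 (0.20), CALCB (0.21) and LOC100507250 (0.21). For scale, the members' own root mean square distances from their DMSO mean were 1.81 for BID, 1.26 for MCL1, 1.18 for BCL2L11 and 0.81 for BIK.

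The wider cell death pathway was described with lists of further genes. Called shares of each list are given in the order both drugs, panobinostat and OTX015. Over all genes they were 37.5%, 37.2% and 16.5%. Downstream of the mitochondrial pore, 2 of 9 apoptosome, caspase and mitochondrial genes rose and 2 fell with both drugs, with a median change of 0.08 beside 0.01 over all genes. CASP9, the initiator caspase of the apoptosome, had 5.84 and 5.81 with both drugs, 5.97 and 5.98 with panobinostat, 5.17 and 5.32 with OTX015, and 3.79 and 4.004 with DMSO. It rose with both drugs (1.93 ± 0.13, adjusted p = 9.56e-06), panobinostat (2.07 ± 0.13, adjusted p = 8.97e-06) and OTX015 (1.35 ± 0.13, adjusted p = 0.000529). DIABLO, which encodes the mitochondrial antagonist of the inhibitor of apoptosis proteins, was also higher with both drugs (1.27 ± 0.17), panobinostat (0.95 ± 0.17) and OTX015 (0.79 ± 0.17). AIFM1, a mitochondrial flavoprotein, fell with both drugs (-0.97 ± 0.14, adjusted p = 0.000515) and panobinostat (-0.66 ± 0.14, adjusted p = 0.00442). With panobinostat 3 of the 9 rose and 2 fell, and with OTX015 3 rose and 0 fell. The called shares of this list were 44.4%, 55.6% and 33.3%.

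Of 5 inhibitor of apoptosis genes, 0 rose and 2 fell with both drugs, and 1 rose and 1 fell with panobinostat and likewise with OTX015. Their called share was 40% in each comparison, beside 37.5%, 37.2% and 16.5% of all genes. BIRC5 (survivin), also a mitotic protein, fell with both drugs (-3.80 ± 0.15, adjusted p = 8.93e-07), panobinostat (-3.44 ± 0.15, adjusted p = 1.95e-06) and OTX015 (-0.51 ± 0.15, adjusted p = 0.0482). XIAP, a direct caspase inhibitor, was lower with both drugs (-0.69 ± 0.23, adjusted p = 0.044), and BIRC2 was higher with panobinostat (0.97 ± 0.12) and OTX015 (0.52 ± 0.12). In the death receptor pathway 2 of 13 rose and 3 fell with both drugs, at a median of -0.02, 2 rose and 2 fell with panobinostat, and 0 rose and 1 fell with OTX015. Here the called shares were 38.5%, 30.8% and 7.69%. TNFRSF10B, a receptor for the ligand TRAIL, had 9.07 and 9.40 with both drugs, 8.45 and 8.34 with panobinostat, 6.43 and 6.55 with OTX015, and 6.68 and 6.49 with DMSO. It rose with both drugs (2.65 ± 0.15, adjusted p = 4.14e-06) and with panobinostat (1.81 ± 0.15, adjusted p = 3.68e-05). CFLAR, which encodes the caspase-8 inhibitor FLIP, fell with both drugs (-2.82 ± 0.21, adjusted p = 1.49e-05) and panobinostat (-2.48 ± 0.21, adjusted p = 3.7e-05). Its arrays with both drugs, 3.42 and 2.87, lay around the background level of 3.03, which limits the size of that fall. The TNF receptor gene TNFRSF1A fell with both drugs (-2.14 ± 0.16, adjusted p = 1.41e-05) and panobinostat (-1.49 ± 0.16, adjusted p = 0.000123). CASP8 averaged 2.23 with both drugs, 3.43 with panobinostat, 2.11 with OTX015 and 2.67 with DMSO. It was at least 1.32-fold higher with panobinostat (adjusted p = 0.00256), and its called differences with both drugs and with OTX015 have no fold, since both groups lay under background.

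Of 8 atypical relatives, 2 rose and 1 fell with both drugs, at a median of 0.29, 2 rose and 1 fell with panobinostat, and 1 rose and 0 fell with OTX015. Their called shares were 37.5%, 37.5% and 12.5%, beside 37.5%, 37.2% and 16.5% of all genes. MOAP1, a modulator of BAX, was higher with both drugs (1.03 ± 0.14, adjusted p = 0.000466) and panobinostat (1.19 ± 0.14, adjusted p = 0.000236). The mitophagy receptor gene BNIP3L was higher with both drugs (0.50 ± 0.12, adjusted p = 0.00971) and panobinostat (0.36 ± 0.12, adjusted p = 0.0431), and BNIP3 with OTX015 (0.55 ± 0.14, adjusted p = 0.0271), whereas BCL2L13 fell with both drugs (-0.69 ± 0.14, adjusted p = 0.00411) and panobinostat (-0.52 ± 0.14, adjusted p = 0.0173). Of 5 outer membrane partners and related mitochondrial genes 0 rose and 2 fell with both drugs, PPIF (-1.52 ± 0.15), a regulator of the permeability transition, and MTCH2 (-0.84 ± 0.17), a receptor for truncated BID. Both fell with panobinostat as well (-1.49 ± 0.15 and -0.57 ± 0.17), and 0 of the 5 were called with OTX015. For these 5 genes the called shares were 40%, 40% and 0%.

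Enzymes that add or remove ubiquitin on MCL1 had 1 of 6 higher and 1 lower with both drugs, 2 higher and 2 lower with panobinostat, and 2 higher and 0 lower with OTX015. Their called shares were 33.3%, 66.7% and 33.3%, beside 37.5%, 37.2% and 16.5% of all genes. The deubiquitinase gene USP9X rose with both drugs (1.54 ± 0.13, adjusted p = 3.51e-05), panobinostat (1.56 ± 0.13, adjusted p = 3.85e-05) and OTX015 (0.90 ± 0.13, adjusted p = 0.00285), the deubiquitinase gene USP13 fell with both drugs (-2.59 ± 0.25, adjusted p = 5.97e-05) and panobinostat (-2.20 ± 0.25, adjusted p = 0.000166), and the ubiquitin ligase gene BTRC rose with panobinostat (0.57 ± 0.14, adjusted p = 0.0104) and OTX015 (0.48 ± 0.14, adjusted p = 0.0483). Of 9 transcriptional regulators of the family, 3 rose and 4 fell with both drugs, 2 rose and 4 fell with panobinostat, and 1 rose and 1 fell with OTX015. For this list the called shares were 77.8%, 66.7% and 22.2%. DDIT3 (CHOP), a stress factor known to act on BH3-only genes, had 8.77 and 8.64 with both drugs, 8.48 and 8.48 with panobinostat, 3.91 and 3.71 with OTX015, and 3.74 and 4.01 with DMSO. The groups with panobinostat were high and the others overlapped, at a rise of 4.83 with both drugs and 4.61 with panobinostat. ATF3 rose with both drugs (2.41 ± 0.23, adjusted p = 6.46e-05), panobinostat (2.498 ± 0.23, adjusted p = 6.07e-05) and OTX015 (0.92 ± 0.23, adjusted p = 0.0291). MYC had 5.53 and 5.49 with both drugs, 6.32 and 6.31 with panobinostat, 8.08 and 8.04 with OTX015, and 9.15 and 9.12 with DMSO. It fell by 3.62 with both drugs, 2.82 with panobinostat and 1.07 with OTX015.

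**Figure D4:**
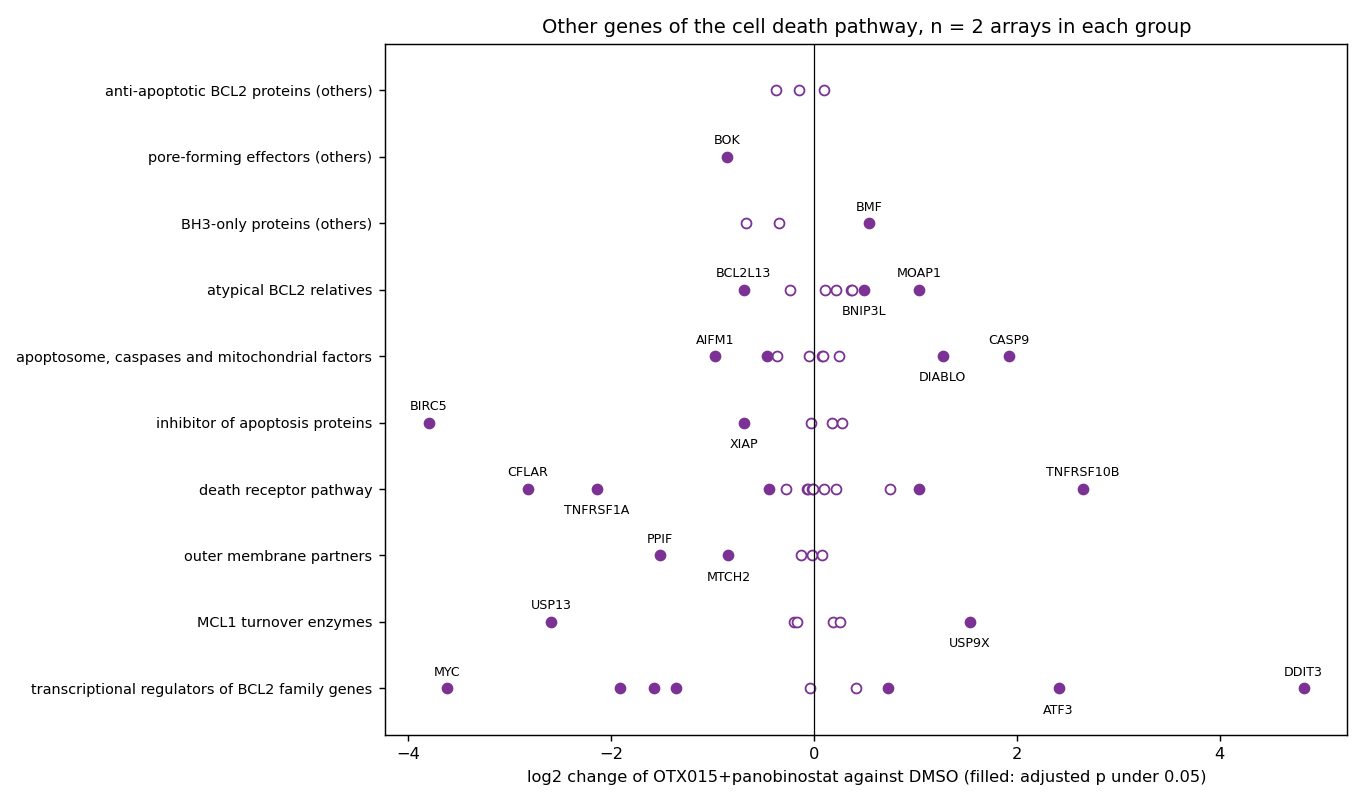
Log2 change of both drugs against DMSO for the other genes of the cell death pathway, one row for each list and one point for each gene (2 arrays in each group; filled points have an adjusted p under 0.05). DDIT3 (4.83), TNFRSF10B (2.65) and CASP9 (1.93) are far to the right, and BIRC5 (-3.80), MYC (-3.62) and CFLAR (-2.82) far to the left.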

How the data were processed

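Per the submitters' processing notes, RMA from affy 1.36.1 (R 2.15.1) made the deposited log2 values. Nothing in the sources used here gives the array model, probe set definition or filters. RMA equalises array distributions, so a change in total RNA per cell cannot be seen. The table held 23786 probe sets, of which the platform annotation pairs 22458 with 1 gene symbol and none with several, and does not list 1328. Samples were grouped by title, and 0 columns were left unassigned. All 8 arrays entered a single fit without covariates, one mean per group (4 groups), in limma 3.58.1 under R 4.3.3, tested two-sided over the 22458 genes with no filter on low values, with 7 comparisons adjusted separately. The fit was checked on simulated data. The members, lists and rules were chosen with earlier results of these data known. Named genes were all 10 members, the called genes with the largest changes of each list (up to 3 with both drugs and 2 with each single drug) and the 3 nearest patterns of 4 members. Of 112 listed genes 7 were not analysed here. Motifs were chosen after the data were seen. The alternatives were centring, quantile normalization, a filter on low values, all probe sets, only the groups compared, an intensity trend, array weights, a replicate block, adjusted p under 0.01 and leaving out each array. For single genes they were read for the 10 members only, not for the markers or other listed genes.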

Additional observations from a re-analysis of the deposited data

Results flagged for a closer look

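The OTX015 change of 4 genes differed with and without panobinostat by the test of the interaction. It was 1.25 on the log2 scale for BID, 0.88 for BCL2L1, -0.98 for BCL2L11 and -1.15 for PMAIP1. The adjusted p was 0.0197 for BID, 0.0218 for BCL2L1, 0.0293 for BCL2L11 and 0.0409 for PMAIP1, and 0 of the 4 calls held without replicate 2 of both drugs or OTX015 replicate 2. Over all genes, 7.26% to 11.3% were called when arrays were left out in turn, against 13.7% with all 8. Groups of 2 arrays are too small for a test of single outlying arrays.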

How the results depend on the processing

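Of the 70 member results (10 genes in 7 comparisons), 46 kept their direction and call under all alternatives run, and 26 of the 38 called ones did; 12 lost the call in at least 1 and 7 gained it. Counts of called members left the main value by over 1.5 times in 3 comparisons. For both drugs against panobinostat the count was 1 at adjusted p under 0.01 and 1 with only the groups compared, against 2. For panobinostat against OTX015 it was 3 at adjusted p under 0.01, against 5, and for the interaction 0, against 4. Leaving out single arrays gave 8 to 9 (both drugs against DMSO), 7 to 9 (panobinostat against DMSO), 3 to 3 (OTX015 against DMSO), 1 to 2 (both against panobinostat), 5 to 6 (both against OTX015), 3 to 4 (panobinostat against OTX015) and 0 to 2 (interaction). The share called over all genes in those fits was 31.3% to 33.1%, 29.4% to 32.6%, 8.39% to 11.4%, 2.52% to 4.63%, 21.7% to 23.7%, 20.9% to 21.4% and 7.26% to 11.3% in the same order. Without OTX015 replicate 1 the 3 for OTX015 were 2 higher and 1 lower. No called value changed sign. Centring turned BCL2L11 in panobinostat against OTX015 to -0.00221, and leaving out single arrays moved 5 uncalled values across 0: BCL2L1 with both drugs against DMSO (-0.18 to 0.015), PMAIP1 with both against panobinostat (-0.22 to 0.32), BCL2L11 in panobinostat against OTX015 (-0.012 to 0.26), and the interactions of BCL2 (-0.26 to 0.17) and BBC3 (-0.11 to 0.33). The causes were not tested. Over all genes, the share called at adjusted p under 0.01 was 7.74% for OTX015 against DMSO and 2.77% for both against panobinostat. With only the groups of the latter compared, at adjusted p under 0.05, it was 6.58%. For panobinostat against OTX015 the share at adjusted p under 0.01 was 19%, beside 29.3% at 0.05, and for the interaction 5.1%. Replicate deviations correlated between groups at 0.047 to 0.118, so the shared replicate numbers do not show that arrays are paired. With the replicate block the counts were 9, 10, 3, 2, 7, 6 and 4 in the order above. Where the count rose, to 10, 7 and 6, the fit with the block called 38%, 30.5% and 29.9% of all genes. Without the block these shares were 37.2%, 30% and 29.3%. PMAIP1 was called with the block in panobinostat against DMSO (0.58, adjusted p = 0.0121), both drugs against OTX015 (-0.57, adjusted p = 0.0173) and panobinostat against OTX015 (-0.61, adjusted p = 0.0127). BCL2 with panobinostat or both drugs, and BIK with OTX015, lie near or under background.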
